A study of Mus musculus with 8 samples.

Results

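The 8 genes described here encode the enzymes that switch the pyruvate dehydrogenase complex on and off and the dehydrogenase itself: the phosphatases Pdp1 and Pdp2, the kinases Pdk1, Pdk2, Pdk3 and Pdk4, and the dehydrogenase subunits Pdha1 and Pdhb. They were taken by symbol from 33885 symbols, and all 8 were present in both count tables. The set was selected on the level of Pdp1 in the nucleus accumbens (NAc), which was lower in the cocaine libraries than in the home-cage libraries, and the other 7 were added for their place in the same enzyme system. The cocaine comparison is therefore given as a description, and tests are given for the comparisons that the choice did not use. Total RNA was sequenced from adult male C57Bl6J mice in 8 libraries, 2 in each of 4 groups. NAc came from mice given 7.5 mg/kg of cocaine intraperitoneally for conditioned place preference and from mice that stayed in the home cage. Medial prefrontal cortex (mPFC) came from mice that had experienced social defeat by aggressive male CD1 mice and from home-cage mice. Tissue was taken 15 min after the experience. The titles of the mPFC libraries of both groups carry the letters WT, and those of the NAc libraries do not. No genetic alteration is given in the labels for any group. The labels do not say whether the 2 libraries of a group came from separate animals or pools, and the p-values below reflect the spread of these libraries, which may be technical. Since the controls stayed in their cages, an effect of the drug cannot be told apart from one of the injection or the chamber, nor an effect of the attack from one of new surroundings.

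Pyruvate dehydrogenase is the mitochondrial gate between glycolysis and the citric acid cycle: it turns pyruvate into acetyl-CoA and reduces NAD+. Its kinases phosphorylate serines of the alpha subunit, encoded by Pdha1, and so shut the enzyme down, and its phosphatases remove the phosphate and restore activity. Pdp1 encodes a catalytic subunit that is stimulated by calcium, and Pdp2 an isoform that does not depend on calcium. In the brain, where glucose is the main fuel, the balance of these enzymes sets how much pyruvate is oxidised and how much leaves as lactate.

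Library totals ranged from 111901829 to 179479978 counts, and the 8 genes held between 572 counts (Pdk4) and 13090 counts (Pdp1) in a library, for which the Poisson error of a count is 4.18% and 0.874%. Levels are given as CPM, counts scaled to a common library size. The NAc libraries differed in tissue composition. The mean log2 CPM of 10 striatal neuron markers minus that of 9 cortical neuron markers was 2.78 and 0.67 in cocaine libraries 1 and 2, 3.39 and 0.57 in NAc home-cage libraries 1 and 2. In mPFC it was between -2.82 and -2.77. The libraries numbered 2 thus held less striatal and more cortical RNA in both NAc groups, and in bulk tissue fewer cells of a type cannot be told apart from less RNA per cell. Every marker of both lists was above 0 in all 8 libraries, and of all marker lists only the microglial gene P2ry12, at 0 in all 8 libraries, and the globin gene Hbb-bt, at 0 in 5, were missing anywhere.

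The phosphatases come first. Pdp1 (chromosome 4, 11958184 to 11966452, reverse strand, GENCODE M21 on GRCm38) was at 44.4 and 42.7 CPM in the cocaine libraries and at 54.7 and 56.2 CPM in the NAc home-cage libraries. It was at 87.6 and 83.5 CPM in the mPFC home-cage libraries and at 91.8 and 93.8 CPM after social defeat. The 4 groups did not overlap. Every NAc library lay below every mPFC library, as in 22.7% of the 18783 genes tested over all 8 libraries. In 24.1% of them every NAc library lay above. Pdp2 (chromosome 8, 104591451 to 104599026, forward strand) was at 9.47 and 9.44 CPM after cocaine, 9.86 and 9.69 CPM in NAc home-cage libraries, 12.1 and 11.4 CPM in mPFC home-cage libraries and 11.4 CPM in both social defeat libraries. Its NAc libraries were all below its mPFC libraries, while the groups within a region lay close together.

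Among the kinases, Pdk1, which is induced by hypoxia, and Pdk2, the most widely expressed isoform, also divided by region. Pdk1 (chromosome 2, 71873224 to 71903858, forward strand) was at 32.3 and 38.7 CPM after cocaine, 34.1 and 44.6 CPM in NAc home-cage libraries, 60.1 and 58.2 CPM in mPFC home-cage libraries and 61.7 and 55.8 CPM after defeat. Pdk2 (chromosome 11, 95026258 to 95041354, reverse strand) was at 46.1 CPM in both cocaine libraries, 44.7 and 52.9 CPM in NAc home-cage libraries, 66.2 and 69.4 CPM in mPFC home-cage libraries and 70.3 and 63.8 CPM after defeat. For both genes the highest NAc library was home-cage library 2, and it was still below the lowest mPFC library. Pdk3 (X chromosome, 93764607 to 93832201, reverse strand), an isoform with high activity towards the complex, lay between 30.7 and 34.1 CPM in NAc and between 28.3 and 31.9 CPM in mPFC, and the regions overlapped. Pdk4 (chromosome 6, 5483351 to 5496309, reverse strand), which fasting, fatty acids and glucocorticoids induce, had the lowest counts of the 8. It was at 5.63 and 5.19 CPM after cocaine, 5.33 and 4.55 CPM in NAc home-cage libraries, 5.41 and 5.14 CPM in mPFC home-cage libraries, and 6.42 and 6.04 CPM after defeat, the highest values of any group.

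The dehydrogenase subunits varied less. Pdha1 (X chromosome, 160122209 to 160138413, reverse strand), the alpha subunit that carries the phosphorylated serines, was at 61.8 and 64.3 CPM after cocaine, 58.2 and 70.5 CPM in NAc home-cage libraries, 71.0 and 73.2 CPM in mPFC home-cage libraries and 75.9 and 74.1 CPM after defeat. Pdhb (chromosome 14, 8165996 to 8173025, reverse strand), the beta subunit, was at 51.7 and 46.0 CPM after cocaine, 53.1 and 55.6 CPM in NAc home-cage libraries, 53.1 and 51.4 CPM in mPFC home-cage libraries and 59.6 and 53.0 CPM after defeat. Pdha1 was higher in every mPFC library than in any NAc library, by little in the case of NAc home-cage library 2, and Pdhb overlapped between the regions. The end of Pdha1 overlaps Map3k15 on the opposite strand over 1143 bases. The strand setting of the counting is unknown, and Map3k15 had between 252 and 763 counts in a library.

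**Figure D1:**
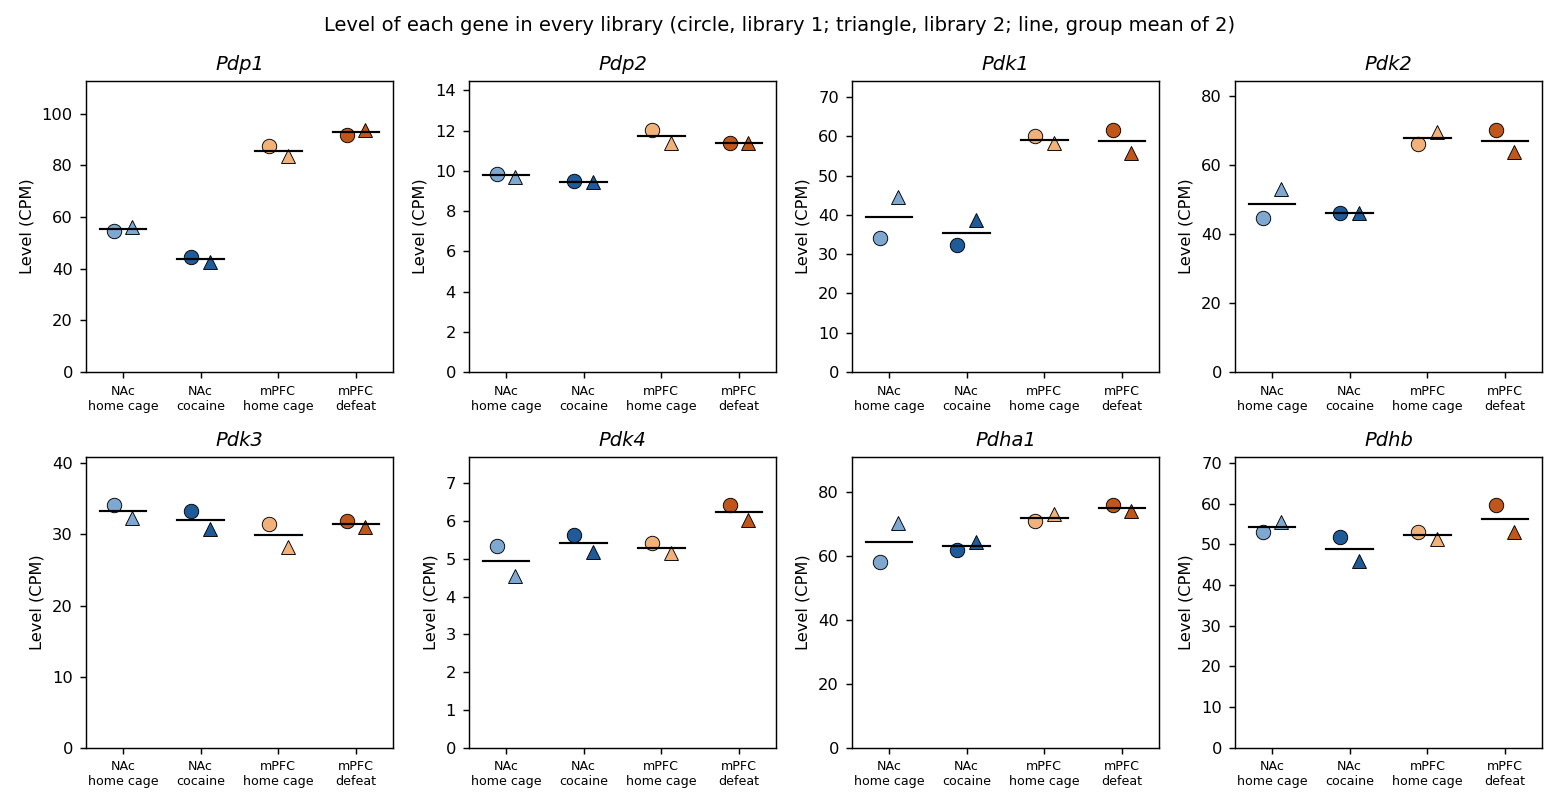
Level of each of the 8 genes in CPM (vertical axes, from 0) in every library, by group (horizontal axes), with circles for library 1, triangles for library 2 and a line at the mean of the 2. Pdp1, chosen on its NAc levels, runs from 42.7 CPM in a cocaine library to 93.8 CPM in a social defeat library. Pdp1, Pdp2, Pdk1, Pdk2 and Pdha1 are lower in every NAc library than in every mPFC library, as are 22.7% of genes tested.

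Between genes, levels can be compared only per length. Per kilobase of merged exons, the mPFC home-cage order was Pdk2 at 21.4 ± 0.733 CPM per kilobase (SD, n = 2), Pdha1 at 19.3 ± 0.428, Pdp1 at 19.0 ± 0.646, Pdhb at 13.5 ± 0.308, Pdk3 at 11.7 ± 0.897, Pdk1 at 7.60 ± 0.168, Pdp2 at 2.06 ± 0.0823 and Pdk4 at 1.503 ± 0.0534. Pdha1 and Pdp1 did not differ beyond their spread. In NAc home-cage libraries Pdha1 came first at 17.2 ± 2.33 CPM per kilobase of exon (SD, n = 2), followed by Pdk2 at 15.4 ± 1.84, Pdhb at 14.1 ± 0.449, Pdk3 at 13.0 ± 0.48 and Pdp1 at 12.3 ± 0.231, neighbours that were within or close to their spread. Pdk1 at 5.06 ± 0.956, Pdp2 at 1.72 ± 0.0214 and Pdk4 at 1.41 ± 0.159 CPM per kilobase were the lowest. Pdp1 thus ranked 5 in NAc and 3 in mPFC, and Pdk1, Pdp2 and Pdk4 kept the last places in both. Whether introns were counted is not known. Per kilobase of the whole gene, Pdp1 came first in mPFC home-cage libraries at 10.3 ± 0.352 CPM per kilobase (SD, n = 2) and Pdk3, whose exons make up 3.8% of its gene, ranked 7 at 0.442 ± 0.034, while Pdk4 stayed last at 0.407 ± 0.0145.

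The cocaine comparison, from which Pdp1 was chosen, set NAc after conditioning against NAc of home-cage mice. Pdp1 had a log2 fold change of -0.34 (SE 0.0753), a level of 43.6 ± 1.15 CPM (SD, n = 2) against 55.4 ± 1.04 CPM (SD, n = 2), or 0.79 of the home-cage level. Between libraries of the same number the ratio was 0.811 and 0.761. Leaving out each of the 4 libraries in turn gave log2 fold changes between -0.37 and -0.31. The Pdp1 level of library 1 was 1.04 of that of library 2 after cocaine and 0.974 in the home cage. The part of tissue composition in these values was not tested.

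The other 7 genes had smaller differences in this comparison, and their groups mostly overlapped. The log2 fold changes were -0.04 (SE 0.0913) for Pdp2, -0.14 (SE 0.171) for Pdk1, -0.07 (SE 0.108) for Pdk2 and -0.05 (SE 0.0867) for Pdk3. They were 0.14 (SE 0.139) for Pdk4, -0.02 (SE 0.119) for Pdha1 and -0.15 (SE 0.0945) for Pdhb. Of these 7 genes, 2 (Pdp2 and Pdhb) had both cocaine libraries below both home-cage libraries, beside 13.2% of the 18418 genes tested, and 0 had both above, beside 11.2%. The log2 fold change was negative for 6 of the 7, beside 52.4% of genes tested, and the median was -0.05 over the 7 genes and -0.01 over all genes tested. Pdk1 differed by library number, with library 1 at 0.836 of library 2 after cocaine and at 0.764 in the home cage, and the lower level was in the library with more striatal markers. Without cocaine library 1, 2 or home-cage library 1, 2 in turn, the sign of Pdk1, Pdk2, Pdk3 and Pdha1 changed at least once, with ranges of -0.32 to 0.06, -0.19 to 0.05, -0.11 to 0.01 and -0.15 to 0.12. Oligodendrocyte markers overlapped between the groups but were low in 1 library: their summed level was 2514 and 2224 CPM in cocaine libraries 1 and 2, and 2362 and 1333 CPM in home-cage libraries 1 and 2. Their part in these values was not tested. In the edgeR fit 0 of the 18418 genes passed at an adjusted p of 0.05 (0%), 211 (1.15%) had an unadjusted p under 0.05, and DESeq2 passed 4 genes.

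The other parts of the complex lay close to 0 in the same comparison. Pdpr, the regulatory partner that restrains the phosphatase Pdp1, was at 0.04 on the log2 scale (SE 0.0853). Dlat, the acetyltransferase core to which kinases bind, had -0.05 (SE 0.0761), Dld, the dihydrolipoamide dehydrogenase, -0.04 (SE 0.0838), and Pdhx, the subunit that anchors it, -0.08 (SE 0.0758). Within a library, the counts of Pdp1 per count of Pdp2 were 4.68 and 4.53 after cocaine and 5.55 and 5.80 in NAc home-cage libraries. In mPFC they were 7.26 and 7.33 in home-cage libraries and 8.07 and 8.24 after defeat. The ratio, which does not depend on the scaling between libraries, was therefore lower in both cocaine libraries and higher in both defeat libraries than in the home-cage libraries of the same region. It contains the Pdp1 counts that chose the gene and was computed after the levels were seen, and 2 against 2 libraries allow no exact two-sided permutation p below 0.333.

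**Figure D2:**
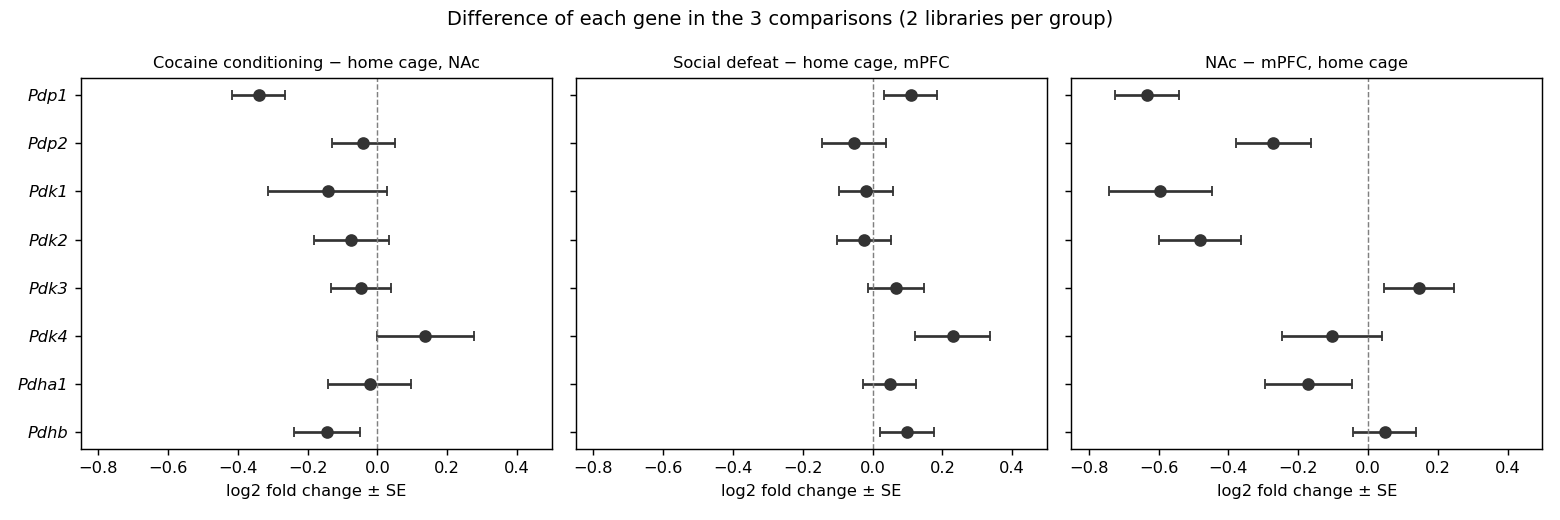
Log2 fold change of each gene with its standard error (horizontal axes) in the 3 comparisons, each of 2 against 2 libraries. After cocaine Pdp1 lies at -0.34 and the other 7 genes between -0.15 and 0.14, after social defeat all 8 lie between -0.05 and 0.23, and in NAc against mPFC Pdp1, Pdk1 and Pdk2 lie at -0.63, -0.60 and -0.48.

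The social defeat comparison in mPFC shared no library with the one that chose Pdp1. None of the 8 genes passed over all 18027 genes tested, where edgeR passed 127 genes, 0.704% of those tested (0.549% higher and 0.155% lower). Pdk4 alone had an unadjusted p under 0.05, as had 7.14% of genes tested. DESeq2 passed 0 of the 8 and 94 genes in all, and gave no adjusted p to 15171 of the 33885 symbols. Defeat libraries held Pdk4 at 6.23 ± 0.268 CPM and home-cage libraries at 5.28 ± 0.188 CPM (both SD, n = 2), a log2 fold change of 0.23 (95% interval 0.01 to 0.45, edgeR adjusted p = 0.645). Its libraries did not overlap between the groups. Pdp1 had a log2 fold change of 0.11 (95% interval -0.04 to 0.26, edgeR adjusted p = 0.907), with both defeat libraries above both home-cage libraries. After cocaine its value was -0.34, and the difference between the responses was not tested, because the cocaine value chose the gene.

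For the remaining genes the intervals after defeat bounded the difference without showing that there was none. They ran from -0.24 to 0.13 for Pdp2, from -0.17 to 0.14 for Pdk1, from -0.18 to 0.13 for Pdk2 and from -0.10 to 0.23 for Pdk3. They ran from -0.10 to 0.20 for Pdha1 and from -0.06 to 0.26 for Pdhb. The 8 genes had a median log2 fold change of 0.06 and all genes tested had 0.00. Pdp1, Pdk4 and Pdha1, 3 of the 8, had both defeat libraries above both home-cage libraries, as had 18.3% of genes tested, and Pdp2 had both below, as had 15.8%. Blood cell markers summed to 57.2 and 62.0 CPM after defeat and to 23.1 and 23.5 CPM in home-cage libraries, and oligodendrocyte markers to between 1101 and 1211 CPM against 1227 and 1484 CPM. Their part in the values of the 8 genes was not tested.

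The regional comparison set NAc against mPFC in home-cage mice. The largest difference among the 8 genes was that of Pdp1, at 0.645 of its mPFC level, with a log2 fold change of -0.63 (SE 0.0925). It shares its NAc libraries with the comparison that chose the gene and is given without a test. Of the other 7 genes 0 passed in edgeR, and 3 had an unadjusted p under 0.05, as had 31.5% of genes tested. DESeq2 passed 2 of the 7, Pdk1 and Pdk2, and 3633 genes in all. It gave no adjusted p to 14530 of the 33885 symbols. The NAc level of Pdk1 was 39.4 ± 7.44 CPM and the mPFC level 59.1 ± 1.31 CPM (both SD, n = 2), a log2 fold change of -0.60 (95% interval -0.97 to -0.22, edgeR adjusted p = 0.0606). For Pdk2 these levels were 48.8 ± 5.81 CPM and 67.8 ± 2.32 CPM (both SD, n = 2), a log2 fold change of -0.48 (95% interval -0.78 to -0.19, edgeR adjusted p = 0.0578). Pdp2 had -0.27 (95% interval -0.54 to -0.00, edgeR adjusted p = 0.156). Of the 18300 genes tested 12.4% passed, 5.35% as lower in NAc and 7.01% as higher. Of the 7, Pdp2, Pdk1, Pdk2 and Pdha1 had both NAc libraries below both mPFC libraries, as had 30.6% of genes tested, and Pdk3 had both above, as had 32.8%.

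Pdk3, Pdk4, Pdha1 and Pdhb had intervals that included 0 in this comparison. Pdk3 had a log2 fold change of 0.15 (95% interval -0.11 to 0.40), the only kinase with a positive sign, and Pdk4 had -0.10 (95% interval -0.46 to 0.26). Pdha1 had -0.17 (95% interval -0.48 to 0.14) and Pdhb 0.05 (95% interval -0.18 to 0.27). The size of the difference depended on the NAc library. Without NAc home-cage library 2, which had the lowest striatal minus cortical score in NAc, the log2 fold change was -0.81 for Pdk1. It was -0.61 for Pdk2 and -0.32 for Pdha1. Without NAc home-cage library 1 the values were -0.41, -0.36 and -0.04 for the same genes. These fits leave a single NAc library, whose spread is assumed to be that of the mPFC pair, so only effect sizes are given. Without either mPFC home-cage library 0 of all genes passed.

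All 8 libraries together gave regional estimates with smaller standard errors. The fit was chosen after the data were seen and averages both NAc groups and both mPFC groups. It treats the 4 NAc libraries as independent, while the difference between NAc libraries 1 and 2 correlated at 0.609 across genes between NAc groups. Its standard errors and adjusted p may therefore be too small. Of 18783 genes, 22.7% had all 4 NAc libraries below all 4 mPFC libraries, as had Pdp2, Pdk1, Pdk2 and Pdha1 of the 7, and 24.1% had them all above, as had 0 of the 7. Of the 7 tested genes 4 were lower in NAc and 0 higher, against 21.8% of all genes lower and 24.4% higher. Pdk1 had a log2 fold change of -0.66 (SE 0.0998, edgeR adjusted p = 0.00207), or 1.57-fold lower in NAc. Pdk2 had -0.50 (SE 0.0687, edgeR adjusted p = 0.0013), Pdp2 -0.26 (SE 0.0534, edgeR adjusted p = 0.00677) and Pdha1 -0.20 (SE 0.0682, edgeR adjusted p = 0.0436). Pdk3 at 0.09 (95% interval -0.04 to 0.22), Pdk4 at -0.15 (95% interval -0.34 to 0.04) and Pdhb at -0.07 (95% interval -0.22 to 0.08) did not pass. In the exposed mice alone, cocaine-treated NAc against defeated mPFC, the same 4 genes were among 6672 genes that passed. The share of all genes tested that these make up was not counted. The experience also differed between the regions in that fit. Astrocyte markers summed to between 2312 and 2543 CPM in NAc and between 3415 and 3700 CPM in mPFC, and oligodendrocyte markers to between 1333 and 2514 CPM against 1101 to 1484 CPM. Their part in the regional differences was not tested, and whether the regions were prepared together is not given in the sources used here.

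**Figure D3:**
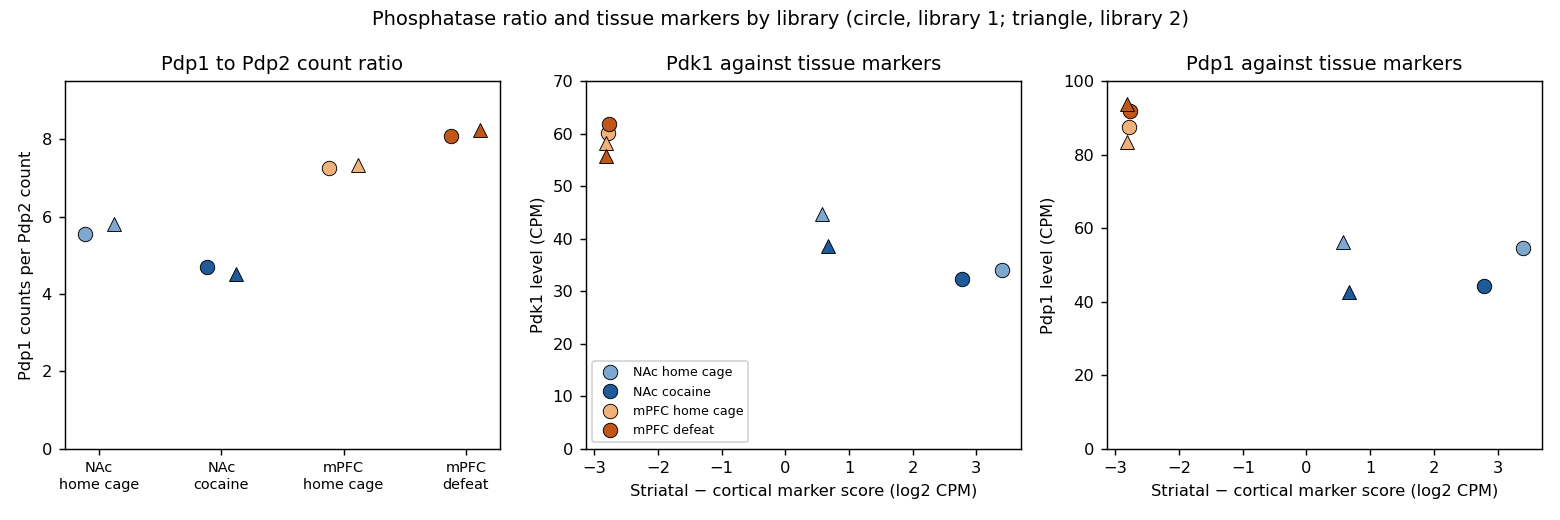
Left, counts of Pdp1 per count of Pdp2 in each library by group. Middle and right, level of Pdk1 and of Pdp1 in CPM against the striatal minus cortical marker score in log2 CPM, with circles for library 1 and triangles for library 2. The Pdk1 level is 34.1 and 32.3 CPM in the NAc libraries numbered 1 and 44.6 and 38.7 CPM in those numbered 2, which have the lower scores. The Pdp1 levels, which chose the gene, are shown for description.

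The promoters of Pdk1, Pdk2 and Pdp2, the regulators that passed as lower in NAc in the fit of all libraries, are shown with the letters that hypoxia-inducible factors (ACGTG and GCGTG) and CREB (TGACG) are known to bind, because Pdk1 is a hypoxia-induced gene and CREB is a factor of neuronal activity. RefSeq promoter entries on GRCm38.p6 were found for 7 of the 8 genes, all but Pdp1. The 250 bases before the first listed start are printed, at chr2:71872974-71873223 (forward strand) for Pdk1, chr11:95041372-95041621 (reverse strand) for Pdk2 and chr8:104591222-104591471 (forward strand) for Pdp2. Capitals mark the 3 motifs on either strand.
Pdk1: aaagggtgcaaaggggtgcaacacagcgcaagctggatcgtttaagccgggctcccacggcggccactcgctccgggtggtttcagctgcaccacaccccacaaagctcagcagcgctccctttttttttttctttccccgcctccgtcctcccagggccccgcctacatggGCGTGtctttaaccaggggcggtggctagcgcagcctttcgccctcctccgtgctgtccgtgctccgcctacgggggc
Pdk2: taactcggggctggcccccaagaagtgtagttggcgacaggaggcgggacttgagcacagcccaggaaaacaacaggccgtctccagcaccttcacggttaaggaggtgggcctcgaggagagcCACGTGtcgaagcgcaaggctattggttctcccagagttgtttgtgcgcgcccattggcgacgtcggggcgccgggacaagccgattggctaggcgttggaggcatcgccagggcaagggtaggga
Pdp2: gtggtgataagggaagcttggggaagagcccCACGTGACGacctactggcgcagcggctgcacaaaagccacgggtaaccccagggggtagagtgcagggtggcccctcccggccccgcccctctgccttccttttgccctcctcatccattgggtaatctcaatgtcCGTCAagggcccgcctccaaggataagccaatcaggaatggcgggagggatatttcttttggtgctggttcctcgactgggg
The Pdk1 sequence holds 1 GCGTG. The Pdk2 sequence holds CACGTG, which reads as ACGTG on both strands. A second listed start of Pdk1 and of Pdk2, not printed, had 0 matches to each of the 3 motifs. The Pdp2 sequence holds the same letters joined to a TGACG that overlaps them, and a second TGACG on the reverse strand. Of 32851 promoter entries of the same length, 16.6% hold ACGTG, 28.2% GCGTG and 17.8% TGACG on either strand. The entries of Pdk3, Pdk4 and Pdhb, which did not pass, and of Pdha1, which did, also hold at least 1 of these motifs. The share of all entries with at least 1 of them was not counted. A match is a description of the letters and not a binding site.

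The other genes of the pathway were taken from lists of fixed membership. In the social defeat comparison 0 members passed of the 4 other complex genes (Dlat, Dld, Pdhx and Pdpr), the 3 lipoate-attachment genes, the 12 genes of pyruvate supply and other pyruvate fates, the 17 citric acid cycle genes and the 14 glycolytic genes. Dld was at 0.15 on the log2 scale (SE 0.0799) and Dlat 0.06 (SE 0.076). Mpc1, a subunit of the mitochondrial pyruvate carrier, had 0.19 (SE 0.078), and Gpt, an alanine aminotransferase, -0.21 (SE 0.101). Sucla2, a subunit of succinyl-CoA synthetase, had 0.16 (SE 0.077) and the glycolytic mutase Pgam1 0.14 (SE 0.0773). Of the lipoate-attachment genes, the lipoyltransferase Lipt2 had -0.26 (SE 0.141) and Lipt1 had 0.20 (SE 0.196). The medians of these lists lay between -0.07 and 0.04.

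In NAc against mPFC in home-cage mice the glycolytic genes had a negative log2 fold change in 14 of 14 members, with a median of -0.33, beside a median of 0.01 and 49.1% negative over all genes tested. Their summed level differed between the NAc libraries, at 3817 and 4526 CPM in home-cage libraries 1 and 2. In mPFC home-cage libraries 1 and 2 it was 4796 and 5288 CPM. Aldoc, the aldolase isoform of astrocytes, was the 1 member of 14 that passed, a share near the 5.35% of all genes that passed as lower, at 1.51-fold lower in NAc (log2 SE 0.116, edgeR adjusted p = 0.0343). The citric acid cycle genes were negative in 11 of 17 members with a median of -0.18, and 0 passed, beside 12.4% of all genes. Idh3g and Idh3a, subunits of isocitrate dehydrogenase, had -0.33 (SE 0.0927) and -0.33 (SE 0.107). All 4 other complex genes were negative with a median of -0.11, and so were the 3 lipoate genes with -0.18, and 0 of either list passed, beside the same share. Among the genes of pyruvate supply 1 of 12 passed, beside 12.4% of all genes: Me3, a mitochondrial malic enzyme that makes pyruvate, which was 1.77-fold higher in NAc (log2 SE 0.105, edgeR adjusted p = 0.013), and 8 of the 12 were negative. The fit of all 8 libraries was chosen after the data were seen, and its adjusted p may be too small. In it 9 of 14 glycolytic genes, 9 of 17 citric acid cycle genes and 3 of the 4 other complex genes were lower in NAc. Of the same lists 0, 2 and 0 were higher, beside 21.8% of all genes lower and 24.4% higher. Pdpr was not among the 3, with a log2 fold change of 0.00 (SE 0.0507). Astrocyte markers were also lower in NAc, as given above, and their part in the values of these lists was not tested.

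**Figure D4:**
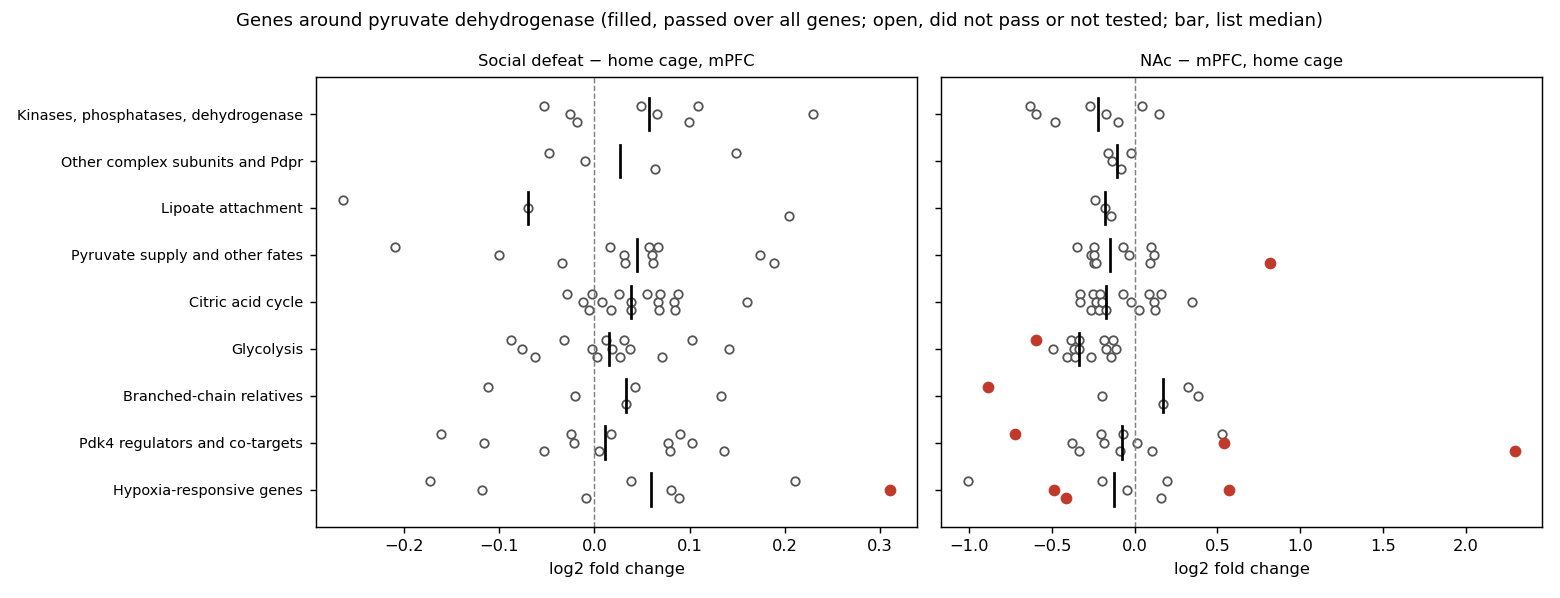
Log2 fold changes (horizontal axes, different ranges) of the genes in 9 lists around pyruvate dehydrogenase, 1 list per row, after social defeat (left) and in NAc against mPFC (right). Filled points passed over all genes, open points did not pass or, for Pdp1 at right, were not tested, and bars mark medians. The glycolytic genes all lie below 0 at right, with a median of -0.33, and at left a single gene is filled, P4ha1.

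The genes with a pattern most like Pdp1 were sought by Pearson's r of log2 CPM over the 8 libraries, after subtracting each region's mean. The search covered 10945 genes with a mean of at least 5 CPM, without provisional symbols such as Gm numbers and Rik names. The first 5 were Wee1, a kinase of the cell cycle (r = 0.959), Mib1, a ubiquitin ligase of Notch signalling (r = 0.954), Cox6c, a subunit of cytochrome c oxidase (r = 0.953), Lman2l, a lectin of the secretory pathway (r = 0.944), and Pyurf (r = 0.943). The 8 points share 4 groups and the cocaine libraries that chose Pdp1. Of these 5, Cox6c had the largest difference after cocaine, with a log2 fold change of -0.22 (SE 0.0773), and the others had between -0.13 and -0.09. Among the enzymes described here, Pdhb had r = 0.735 with Pdp1, Pdk3 0.523, Pdp2 0.423, Pdk1 0.341, Pdk2 0.301, Pdha1 0.208 and Pdk4 -0.147.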

How the data were processed

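Total RNA libraries of NAc and mPFC were aligned to mm10 with STAR 2.7.1a and counted with featureCounts, per the submitters' processing notes. For each region 1 table of raw counts by gene symbol was deposited. The sources used here do not give the featureCounts options for strand, introns and overlapping genes. Columns were matched to samples by title, and mPFC libraries are numbered in deposit order within a group. The tables were joined by symbol. In R 4.3.3, edgeR 4.0.16 (filterByExpr, TMM, estimateDisp, glmQLFit, glmQLFTest) was fitted to the libraries of each comparison, with Benjamini-Hochberg adjustment over all genes tested and a threshold of 0.05. SE was taken as the size of the log2 fold change over the root of F, and 95% intervals use the fit's degrees of freedom. CPM uses TMM factors over the 8 libraries, and log2 CPM a prior count of 2. DESeq2 1.42.0, other scaling, no filter, a fit of 8 libraries, each library left out and a replicate block were alternatives. The code was tested on simulated data. Gene coordinates and lengths came from GENCODE M21 (33047 symbols matched). All 8 genes and up to 4 members with the smallest p among those that passed in a list, otherwise up to 2, are named. The genes and lists were chosen with earlier results of these data known. Intervals cover the spread between libraries only.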

Additional observations from a re-analysis of the deposited data

How the results depend on the processing

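Over the alternatives, the log2 fold change of Pdp1 was 0.07 to 0.14 after defeat and -1.08 to -0.61 between regions. After cocaine it was -0.37 to -0.31, where the choice of the gene fixes the sign. Of the 8 genes, 0 passed after defeat under all 8 alternatives. Between regions, 0 of the 7 tested genes passed in the reported fit, 2 with DESeq2, 2 with no filter on low counts, 3 in a fit of all 8 libraries, 1 with the replicate number as a block, 4 in exposed mice, 4 with all NAc against all mPFC libraries, and 0 to 3 without each library in turn. Over all genes, the 2262 regional calls were 3633 with DESeq2, 4654 in a fit of all 8 libraries, 6672 in exposed mice, 8666 with all libraries and 0 to 8048 without each library. The 127 calls after defeat were 5 in the fit of all 8 libraries and 58 to 238 without each library. With no filter on low counts the regional calls over all genes were 3211, and with the replicate block 2174. Shares of the genes tested were not counted for these alternatives. The cocaine calls were 4 with DESeq2 and 38 with the replicate block. That block is a shared number in the titles, not a stated pairing: the difference between NAc libraries 1 and 2 correlated at 0.609 across genes between the groups. Besides the 4 genes given above for cocaine, values that changed sign were those after defeat of Pdk1 (-0.0981 to 0.0573 without each library), Pdk2 (-0.101 to 0.0474) and Pdk3 (-0.00985 to 0.146), and between regions Pdk4 (-0.221 to 0.0036) and Pdhb (-0.191 in exposed mice and -0.0721 with all libraries). The cause was not tested. Per kilobase of gene in place of exon, 2 of the 8 genes kept their rank in NAc home-cage libraries. Of the 5 genes most like Pdp1, 3 were among the first 5 by Spearman's rho. The 9 genes outside the 8 that are named as passing between regions lost the call without either mPFC home-cage library.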

Other observations

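The branched-chain ketoacid dehydrogenase is a sister complex with a kinase and a phosphatase of its own. Its phosphatase gene Ppm1k was 1.85-fold lower in NAc than in mPFC in home-cage mice (log2 SE 0.103, edgeR adjusted p = 0.0105), and it was the only one of the 5 genes of this list that passed, beside 12.4% of all genes tested. After social defeat 0 of the 5 passed. Dbt, the acyltransferase core, was at 0.13 on the log2 scale (SE 0.0872) and Bckdha, a dehydrogenase subunit, -0.11 (SE 0.0908).

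Genes known to regulate Pdk4 or to be induced with it differed between the regions in both directions, 2 higher and 1 lower in NAc of 12 tested, beside 7.01% and 5.35% of all genes. Foxo1, a transcription factor that acts on Pdk4, was 4.92-fold higher in NAc (log2 SE 0.393, edgeR adjusted p = 0.0254). Its log2 fold change of 2.30 was 1.58 without NAc home-cage library 1 and 2.78 without NAc home-cage library 2. Fkbp5, a glucocorticoid-induced chaperone partner, was 1.45-fold higher (log2 SE 0.0945, edgeR adjusted p = 0.0269). Tsc22d3, a glucocorticoid-induced leucine zipper gene, was 1.65-fold lower (log2 SE 0.0999, edgeR adjusted p = 0.0155). After social defeat 0 of the 12 passed, and Hif3a and Fkbp5 had log2 fold changes of -0.16 (SE 0.0905) and 0.14 (SE 0.0822). After cocaine 1 of the 12 was below 0 on the log2 scale, beside 52.4% of all genes (median 0.08, beside -0.01), 2 had both cocaine libraries above both home-cage libraries, beside 11.2% of all genes, and 0 passed.

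Of 8 tested hypoxia-responsive genes 1 passed after social defeat, beside 0.704% of all genes. P4ha1, a collagen prolyl hydroxylase, rose after social defeat, 1.24-fold (log2 SE 0.0758, edgeR adjusted p = 0.022), with an adjusted p between 0.00304 and 1 over the alternatives. The call was lost without mPFC home-cage library 2 (edgeR adjusted p = 0.0801), defeat library 1 (edgeR adjusted p = 0.273) or defeat library 2 (edgeR adjusted p = 0.665), and in the fit of all 8 libraries. Between regions 3 of the 8 passed, beside 12.4% of all genes. Ndrg1 was 1.49-fold higher in NAc (log2 SE 0.0988, edgeR adjusted p = 0.0261), Bnip3 1.40-fold lower (log2 SE 0.104, edgeR adjusted p = 0.0427) and Slc2a1, the glucose transporter of the blood-brain barrier, 1.33-fold lower (log2 SE 0.093, edgeR adjusted p = 0.0483). Ndrg1 is also expressed by oligodendrocytes, whose markers summed to 1333 and 2362 CPM in NAc home-cage and 1227 and 1484 CPM in mPFC home-cage libraries.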
